A study of Saccharomyces cerevisiae with 12 samples.

Results

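The histone genes of budding yeast were followed in mutants of the Snf/Swi chromatin-remodelling complex. The set comprised 10 of the 5574 genes named on the arrays, chosen by gene name: the 8 core histone genes, the gene of the H2A variant H2A.Z and the gene of the linker histone. Each gene had 1 probe on each array platform, except that the linker histone gene HHO1 had 2 probes on the platform of replicates 2 and 3. The 12 arrays were two-channel spotted arrays, each with RNA of a deletion mutant in channel 1 and RNA of the wild-type strain FY2 in channel 2. The mutants were FY31, which carries the snf2 deletion, and YPS1, which carries the swi1 deletion, so the groups were snf2 in minimal medium, swi1 in minimal medium, snf2 in rich medium (YPD) and swi1 in rich medium, with 3 arrays each. The extent of the deletions and other markers of the strains are not known from the labels, and nothing says whether replicates were grown as separate cultures. The p-values therefore reflect spread between arrays, which may be technical.

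Nucleosomes wrap DNA around an octamer of the core histones H2A, H2B, H3 and H4. In budding yeast each core histone is encoded by a pair of gene copies, and the genes are arranged as divergent couples: HTA1 with HTB1, HTA2 with HTB2, HHT1 with HHF1 and HHT2 with HHF2. HTA genes encode H2A, HTB genes H2B, HHT genes H3 and HHF genes H4. Core histone genes are transcribed mainly around S phase, when new DNA must be packaged, and the Hir proteins keep all of these couples except HTA2-HTB2 repressed outside S phase. Snf/Swi moves or evicts nucleosomes with the ATPase Snf2, and Swi1 is another subunit of the same complex. Histones and Snf/Swi have a long genetic connection in yeast: mutations of histone genes, among them loss of HTA1-HTB1 and alleles of HHT1 known as SIN2, relieve some defects of snf and swi mutants, and Snf/Swi has been described as a coactivator at HTA1-HTB1.

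Per the locus tags of RefSeq R64, HTA1 (YDR225W) and HTB1 (YDR224C) lie next to each other on opposite strands of chromosome IV. HTA2 (YBL003C) and HTB2 (YBL002W) lie on chromosome II, as do HHT1 (YBR010W) and HHF1 (YBR009C). HHT2 (YNL031C) and HHF2 (YNL030W) lie on chromosome XIV. HTZ1 (YOL012C), which encodes H2A.Z, lies on chromosome XV and HHO1 (YPL127C), the linker histone gene, on chromosome XVI.

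All values are log2 ratios of mutant over wild type, set so that the median gene of an array is 0, and a value of -1 means a level 2-fold lower in the mutant. The labels do not state which channel is the numerator. The deposited sign was turned, because the wild type is named first and is channel 2, and ScanAlyze's ratio is channel 2 over channel 1. This direction is likely and not settled. Under the opposite reading, genes given as lower would be higher and the reverse. Neither deleted gene decided the direction. On arrays labelled snf2, SNF2 stood at 0.43, 0.79 and 0.997 in minimal medium and at -0.68, 0.69 and 0.65 in rich medium (replicates 1, 2 and 3), above the array median on 5 of 6 arrays. On arrays labelled swi1, 1 SWI1 probe stood at -0.83 and -0.46 in minimal medium (replicates 2 and 3) and at -1.33 on rich replicate 2, while a second stood at 1.25 and 0.57 on rich replicates 2 and 3. On replicate 1, SWI1 stood at 1.35 in minimal and -0.49 in rich medium. SNF2 thus ran against the labels under the reading used, and which parts of the genes the probes cover is not given, so the strains are named by their labels throughout.

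The arrays of replicate 1 were made on other platforms than those of replicates 2 and 3 and entered no main test, so n = 2 per group in the tests below. Snf2 rich replicate 1 had the widest spread, with a standard deviation of the deposited values of 1.40 against 0.60 to 0.83 on the other 11 arrays. Snf2 rich replicate 3 lacked 40.0% of its values, among them HTA2, HHT2, HHF2 and HTZ1, and HTB1 was missing on snf2 rich replicate 2. These 5 genes could not be tested in that group.

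The core histone genes were lower on arrays of both mutants in both media. The mutant was in channel 1 on all 12 arrays, so an effect of the channel on a gene's ratio cannot be told apart from one of the deletion. Of 92 measured values of the 8 core genes on 12 arrays, 91 lay below the array median and 1 above it. The exception was HHT1 on snf2 rich replicate 1, at 0.35. Without that array 84 of 84 values lay below 0. HTA1, HTB2 and HHF1 were below 0 on all 12 arrays, as were 11.9% of the genes measured on all of them, while HTB1, HTA2, HHT2 and HHF2 were below 0 on all 11 arrays that measured them and HHT1 on 11 of 12.

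**Figure D1:**
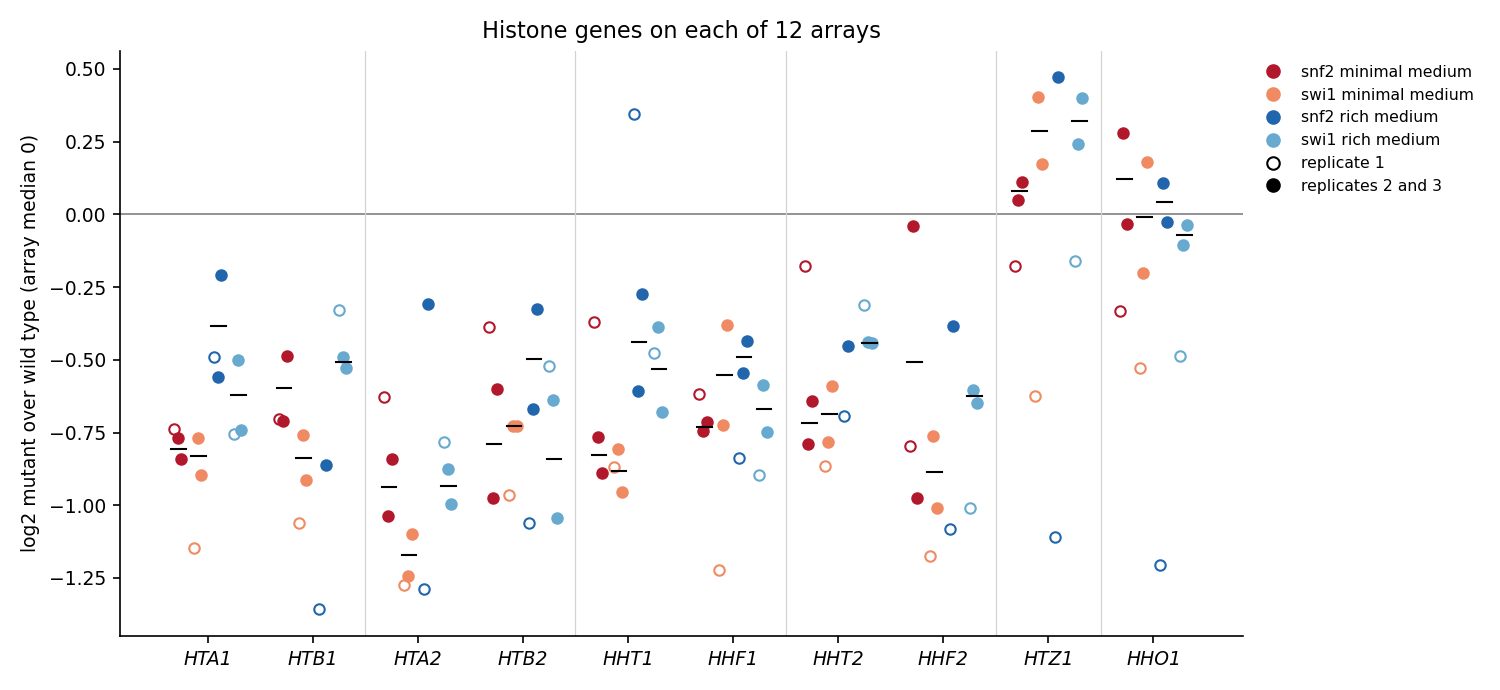
Log2 ratio of mutant over wild type (array median at 0, direction likely) of each histone gene on each array, coloured by group, with open circles for replicate 1, filled circles for replicates 2 and 3, and a bar at the mean of those 2 arrays where both were measured. The core genes lie below 0 except HHT1 on snf2 rich replicate 1, whereas HTZ1 lies above 0 on replicates 2 and 3, HHO1 on both sides of it, and both genes below it on replicate 1.

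Among the H2A genes, HTA2 had the lower mean over the arrays that measured both, -0.94 against -0.75 for HTA1. In minimal medium HTA2 stood at -0.63, -1.04 and -0.84 on arrays labelled snf2 and at -1.27, -1.24 and -1.10 on arrays labelled swi1 (replicates 1, 2 and 3). In rich medium it stood at -1.29 and -0.31 on snf2 replicates 1 and 2 and at -0.78, -0.87 and -0.996 on the swi1 arrays. HTA2 was thus below 0 on all 11 arrays that measured it, with the smallest shift on snf2 rich replicate 2. It fell by 0.94 ± 0.10 (moderated SE, n = 2) in snf2 minimal, with a limma adjusted p = 0.00143, and its value was -1.17 ± 0.10 in swi1 minimal, with adjusted p = 0.000622, which is a level 2.25-fold lower. In swi1 rich it fell by 0.94 ± 0.10 (1.91-fold, adjusted p = 0.00108).

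HTA1, the other H2A gene and the copy under Hir repression, stood at -0.74, -0.77 and -0.84 on snf2 arrays and at -1.15, -0.77 and -0.90 on swi1 arrays in minimal medium. The rich-medium arrays put it at -0.49, -0.56 and -0.21 on snf2 arrays and at -0.76, -0.50 and -0.74 on swi1 arrays. The minimal arrays of snf2 were all lower than its rich arrays, while those of swi1 all lay below its rich arrays only narrowly, -0.77 against -0.76. How many of all genes separated or overlapped in this way was not counted, here or for the other core genes. Replicate 1 was on a different platform in each medium, so platform and medium cannot be told apart there. HTA1 fell by 0.81 ± 0.11 (1.75-fold, limma adjusted p = 0.00250) in snf2 minimal, by 0.83 ± 0.11 (adjusted p = 0.00257) in swi1 minimal, by 0.38 ± 0.12 (adjusted p = 0.0333) in snf2 rich and by 0.62 ± 0.11 (adjusted p = 0.00521) in swi1 rich. Without snf2 rich replicate 2 the snf2 rich call was lost (adjusted p = 0.338), and without swi1 rich replicate 3 the swi1 rich call was lost (adjusted p = 0.0738).

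The H2B genes stood at similar values. HTB1 stood at -0.70, -0.71 and -0.49 on snf2 arrays and at -1.06, -0.76 and -0.91 on swi1 arrays in minimal medium. In rich medium it stood at -1.36 and -0.86 on snf2 replicates 1 and 3 and at -0.33, -0.49 and -0.53 on swi1 arrays. The swi1 arrays were lower in minimal than in rich medium without overlap, while both snf2 rich arrays lay below the snf2 minimal ones. As for HTA1, the share of all genes without overlap was not counted.

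HTB2 stood at -0.39, -0.98 and -0.60 on snf2 arrays and at -0.97, -0.73 and -0.73 on swi1 arrays in minimal medium. On rich-medium arrays it stood at -1.06, -0.67 and -0.33 on snf2 arrays and at -0.52, -0.64 and -1.04 on swi1 arrays, so that the media overlapped in both strains. HTB1 fell by 0.598 ± 0.10 (limma adjusted p = 0.00681) in snf2 minimal, by 0.84 ± 0.10 (adjusted p = 0.00252) in swi1 minimal and by 0.51 ± 0.10 (adjusted p = 0.00940) in swi1 rich. HTB2 fell by 0.79 ± 0.14 (adjusted p = 0.00652), 0.73 ± 0.14 (adjusted p = 0.0104), 0.50 ± 0.14 (adjusted p = 0.0282) and 0.84 ± 0.14 (adjusted p = 0.00386) in snf2 minimal, swi1 minimal, snf2 rich and swi1 rich. No HTB2 call held when each array of its group was left out in turn. It was lost in snf2 minimal without replicate 2 (adjusted p = 0.0938), in swi1 minimal without replicate 2 (0.0926) or 3 (0.0834), in snf2 rich without replicate 2 (-0.33, 0.257) or 3 (0.0527), and in swi1 rich without replicate 3 (0.0553). With all 12 arrays none of the 4 HTB2 calls passed (adjusted p from 0.0510 to 0.112). The HTB1 call was lost in snf2 minimal without replicate 2 (0.0816) and in swi1 rich without replicate 2 (0.0546) or 3 (0.0818), and in swi1 rich also with all 12 arrays (0.0902).

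Of the H3 genes, HHT1 stood at -0.37, -0.77 and -0.89 on snf2 arrays and at -0.87, -0.81 and -0.96 on swi1 arrays in minimal medium. In rich medium it stood at 0.35, -0.61 and -0.28 on snf2 arrays and at -0.48, -0.39 and -0.68 on swi1 arrays. The swi1 arrays of minimal medium were all lower than those of rich medium, and the snf2 arrays overlapped. HHT1 fell by 0.83 ± 0.12 (limma adjusted p = 0.00259) in snf2 minimal, by 0.88 ± 0.12 (adjusted p = 0.00236) in swi1 minimal, by 0.44 ± 0.12 (adjusted p = 0.0229) in snf2 rich and by 0.53 ± 0.12 (adjusted p = 0.0110) in swi1 rich. The snf2 rich call of HHT1 was lost without replicate 2 (-0.28, adjusted p = 0.241) and the swi1 rich call without replicate 3 (0.140). With all 12 arrays HHT1 did not pass in snf2 minimal (-0.57, adjusted p = 0.125), snf2 rich (-0.11, 0.729) or swi1 rich (-0.44, 0.200).

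HHT2 stood at -0.18, -0.79 and -0.64 on snf2 arrays and at -0.87, -0.78 and -0.59 on swi1 arrays in minimal medium. The rich-medium arrays put it at -0.69 and -0.45 on snf2 replicates 1 and 2 and at -0.31, -0.44 and -0.44 on swi1 arrays. Again the swi1 arrays of minimal medium were lower than those of rich medium without overlap. HHT2 fell by 0.72 ± 0.10 (limma adjusted p = 0.00328) in snf2 minimal, by 0.69 ± 0.10 (adjusted p = 0.00466) in swi1 minimal and by 0.44 ± 0.10 (adjusted p = 0.0141) in swi1 rich, the last lost without either array (adjusted p = 0.0807 without replicate 2 and 0.1004 without replicate 3). The swi1 minimal call of HHT2 was lost without replicate 2 (0.0538), and with all 12 arrays HHT2 did not pass in snf2 minimal (0.113) or swi1 rich (0.248).

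Of the H4 genes, HHF1 stood at -0.62, -0.75 and -0.71 on snf2 arrays and at -1.22, -0.73 and -0.38 on swi1 arrays in minimal medium. In rich medium it stood at -0.84, -0.55 and -0.44 on snf2 arrays and at -0.90, -0.59 and -0.75 on swi1 arrays, so the media overlapped in both strains. HHF1 fell by 0.73 ± 0.11 (limma adjusted p = 0.00279) in snf2 minimal, by 0.55 ± 0.11 (adjusted p = 0.00969) in swi1 minimal, by 0.49 ± 0.11 (adjusted p = 0.0101) in snf2 rich and by 0.67 ± 0.11 (adjusted p = 0.00304) in swi1 rich. The snf2 rich call of HHF1 was lost without replicate 2 (adjusted p = 0.0918) or 3 (0.0532), and the swi1 minimal call without replicate 2 (-0.38, 0.0996).

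HHF2 is the other H4 copy. It stood at -0.80, -0.0395 and -0.97 on snf2 arrays and at -1.17, -0.76 and -1.01 on swi1 arrays in minimal medium. On rich-medium arrays it stood at -1.08 and -0.38 on snf2 replicates 1 and 2 and at -1.01, -0.60 and -0.65 on swi1 arrays. One array, snf2 minimal replicate 2, was near 0. HHF2 fell by 0.89 ± 0.21 (limma adjusted p = 0.0259) in swi1 minimal, a call lost without either array (adjusted p = 0.122 and 0.195). Its value was -0.51 ± 0.21 (adjusted p = 0.122) in snf2 minimal and -0.63 ± 0.21 (adjusted p = 0.0549) in swi1 rich, and neither passed. Without snf2 minimal replicate 2 the snf2 minimal value was -0.97 (adjusted p = 0.0191).

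In minimal medium limma called 7 of the 8 core genes lower on snf2 arrays, where 16.4% of all tested genes were called lower, and 8 of 8 on swi1 arrays, where 14.8% were. In rich medium it called lower all 4 core genes that could be tested on snf2 arrays (22.2% of all genes) and 7 of 8 on swi1 arrays (21.7% of all genes). No core gene was called higher, while 12.8%, 13.7%, 19.5% and 19.1% of all genes were, in the same order. The core median was -0.76 for snf2 and -0.83 for swi1 in minimal medium, and -0.47 for snf2 and -0.62 for swi1 in rich medium. The medians over all tested genes were 0.0060, 0.0025, 0.0145 and -0.00275 in that order. Of the 26 calls of core genes, 11 held when each array of the group was left out in turn, 5 on snf2 and 4 on swi1 arrays of minimal medium, and 0 on snf2 and 2 on swi1 arrays of rich medium. HTA2 was among them in each of the 3 groups where it was tested. Such a fit leaves 1 array in the group, which is assumed to vary like the arrays of the other groups. With replicate 1 added and the platform as a random block, 4 core genes were called for snf2 and 7 for swi1 in minimal medium, 1 for snf2 and 3 for swi1 in rich medium, and no core call changed direction. How many of all genes were called with replicate 1 added, or held without each array, is not given here.

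**Figure D2:**
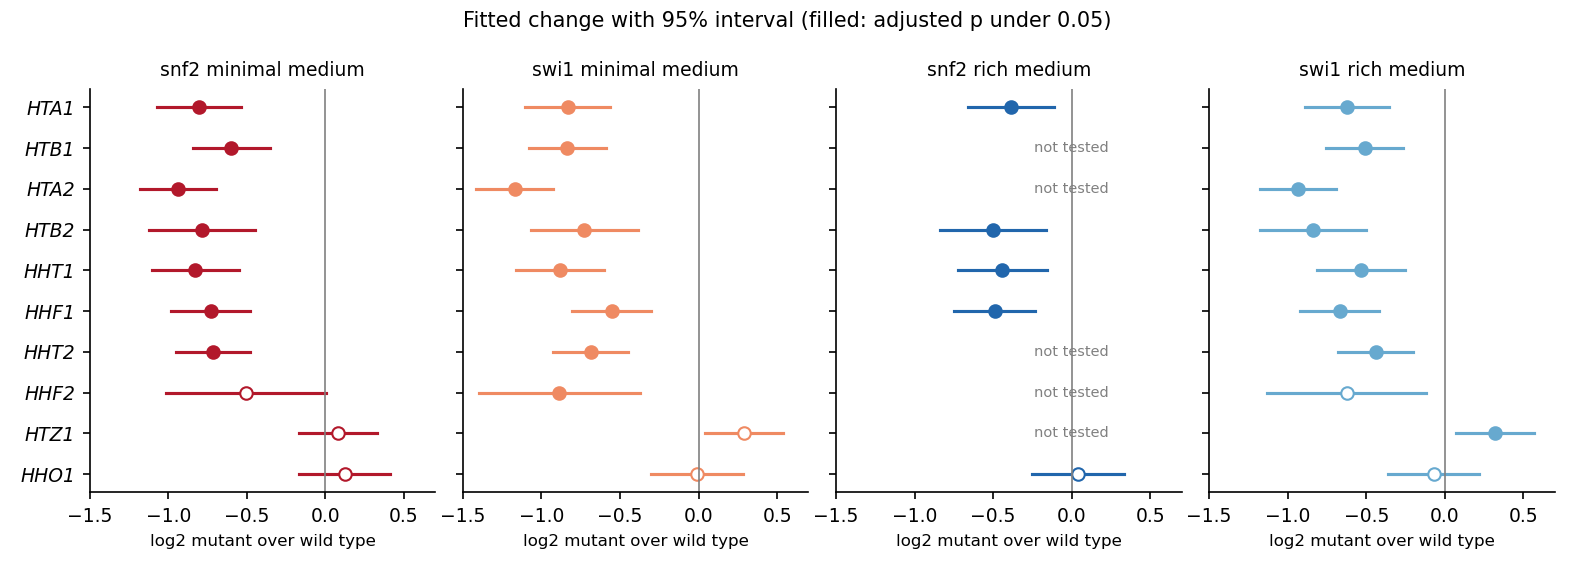
Fitted log2 ratio of mutant over wild type (direction likely) of each histone gene in the 4 groups, from limma on replicates 2 and 3, with its 95% confidence interval. Filled circles mark adjusted p under 0.05, and genes missing on an array of the group carry no value. The core genes lie between -0.38 and -1.17, and the intervals of HHO1 span 0 in all 4 groups.

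The shifts were moderate in size. In minimal medium the core genes ranked from percentile 3.12 (HTA2 on swi1 arrays) to percentile 13.1 (HHF2 on snf2 arrays) of all tested genes, counted from the lowest. In rich medium they ranked from percentile 4.52 (HTA2 on swi1 arrays) to percentile 21.7 (HTA1 on snf2 arrays). On single arrays the mean of the measured core genes was -0.55, -0.73 and -0.75 for snf2 and -1.07, -0.82 and -0.82 for swi1 in minimal medium, and -0.81, -0.50 and -0.42 for snf2 and -0.64, -0.56 and -0.73 for swi1 in rich medium (replicates 1, 2 and 3). The swi1 minimal arrays were thus lower than all others, and the lowest of the remaining 9 was snf2 rich replicate 1. On an array the core genes differed among themselves with a standard deviation of 0.13 to 0.30, or 0.55 on snf2 rich replicate 1. HTA2 was the lowest core gene on snf2 minimal replicate 2, on all 3 swi1 minimal arrays and on swi1 rich replicate 2. It was the highest on snf2 rich replicate 2 (-0.31). HHF2, HTB1 or HTB2 was the lowest on the other arrays.

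**Figure D3:**
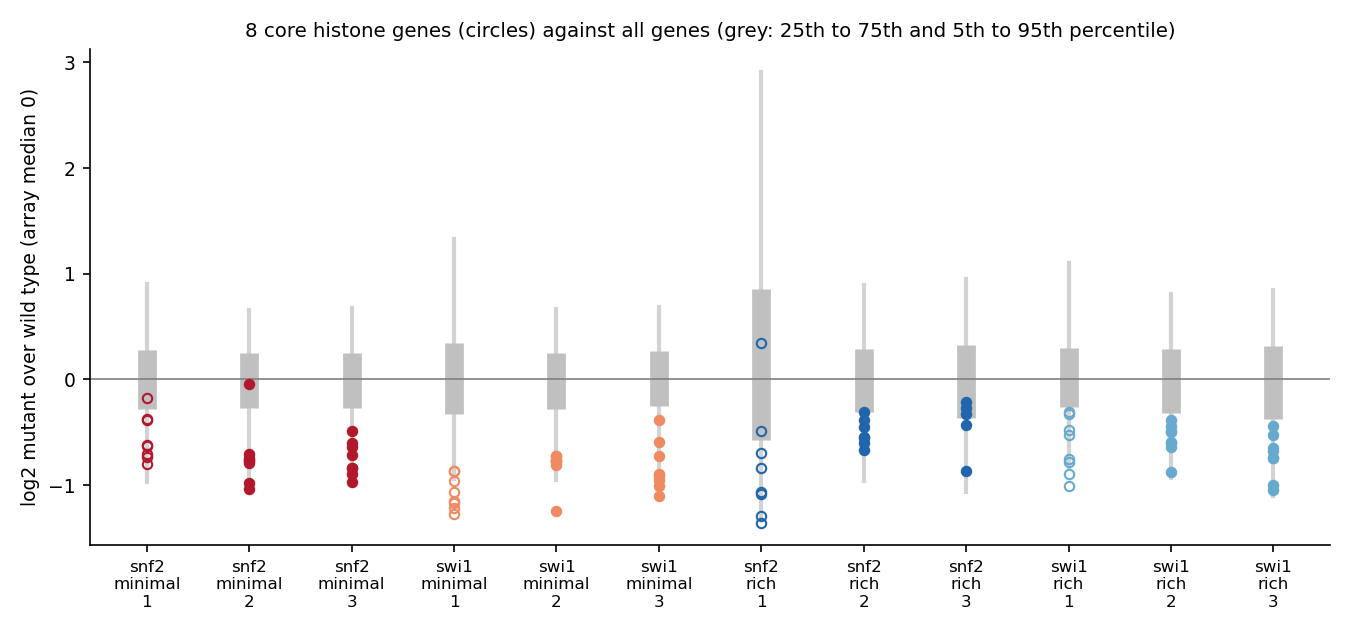
Log2 ratio of mutant over wild type (direction likely) of the 8 core histone genes (circles, open for replicate 1) on each array. Grey bars span the 25th to 75th percentile of all genes of the array and thin lines the 5th to 95th. On all arrays the median of the core genes lies below the 25th percentile or, on snf2 rich replicate 3, just above it, where 27.0% of genes were lower.

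The question whether the media differ in their histone shift was asked within each strain. On arrays labelled snf2 the 4 testable core genes were all lower in minimal than in rich medium, with differences of -0.24 for HHF1, -0.29 for HTB2, -0.39 for HHT1 and -0.42 for HTA1, but none passed. HTA1 came closest, with a difference of -0.42 ± 0.17, a 95% interval of -0.80 to -0.0383 and a limma adjusted p = 0.201. Its group means were -0.81 in minimal and -0.38 in rich medium. Of the core genes not tested for snf2, HTB1 went the other way, at -1.36 and -0.86 in rich medium, below its values in minimal medium. HTA2, HHT2 and HHF2 overlapped between the media. On snf2 replicate 1, which was on a different platform in each medium, the core mean was -0.81 in rich and -0.55 in minimal medium. On arrays labelled swi1, 6 of 8 core genes were lower in minimal than in rich medium and 2 (HTB2 and HHF1) higher, and none passed, with the smallest adjusted p = 0.213 for HTB1 at -0.33 ± 0.14. Of all genes limma called 5% for snf2 and 6.26% for swi1. At an unadjusted p under 0.05, 1 of 5 tested histone genes (HTA1) passed for snf2, beside 21.2% of all genes, and 0 of 10 for swi1, beside 25.5%. No histone gene was called for either difference under any of the alternatives.

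The strains were compared within each medium. In minimal medium the difference of snf2 minus swi1 lay between -0.18 (HHF1) and 0.38 (HHF2) for the core genes, with limma adjusted p of 0.857 or more. The 95% interval was -0.35 to 0.40 for HTA1, -0.11 to 0.58 for HTA2, -0.10 to 0.58 for HTB1 and -0.34 to 1.10 for HHF2. It was -0.54 to 0.41 for HTB2 and -0.53 to 0.18 for HHF1. The smallest core shift in this medium was -0.51 (HHF2 in snf2). Differences of that size lay within the intervals of HTA2, HTB1, HHF2, HTB2 and HHF1, and larger ones within that of HHF2. In rich medium the 4 testable core genes were nearer to 0 in snf2 than in swi1, by 0.0925 (HHT1) to 0.34 (HTB2), and none passed (limma adjusted p of 0.754 or more). The interval for HTB2 was -0.13 to 0.82. Of the core genes not tested there, HTB1 and, narrowly, HHT2 went the other way, with all measured snf2 values below those of swi1. HTA2 and HHF2 overlapped between the strains. How many of all genes separated or overlapped in this way was not counted. On replicate 1 of rich medium the core mean was -0.81 for snf2 and -0.64 for swi1. limma called 0 histone genes in both media, also at an unadjusted p under 0.05 and under each alternative run, beside 0% of all genes in minimal and 0.0294% in rich medium (5.47% and 6.65% at an unadjusted p under 0.05).

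Each core histone has its copies at separate loci, of which Hir controls one H2A-H2B couple and not the other. The difference between copies was taken within each array, where centring cancels. HTA1 stood above HTA2 on 8 of 11 arrays, by 0.20 ± 0.29 on average (SD, n = 11), with means of -0.75 for HTA1 and -0.94 for HTA2. An exact sign-flip permutation test (two-sided) gave p = 0.0420, and p = 0.168 after Benjamini-Hochberg adjustment over the 4 pairs of copies, so the difference did not pass. Without snf2 rich replicate 2 it was 0.24 and passed (exact test, adjusted p = 0.0469). That array had the lowest difference, -0.25, and under no other alternative run did the difference pass.

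HTB1 minus HTB2 averaged -0.0204 ± 0.30 (SD, n = 11, exact test adjusted p = 0.913), HHT1 minus HHT2 -0.0249 ± 0.38 (adjusted p = 0.913, exact test, n = 11) and HHF1 minus HHF2 0.0424 ± 0.33 (adjusted p = 0.913, exact test, n = 11). By group, HTB1 minus HTB2 was 0.29 ± 0.20 (SD, n = 3) in swi1 rich, positive on all 3 arrays, and -0.10 ± 0.08 (SD, n = 3) in swi1 minimal, negative on all 3. It was -0.54 and -0.30 on the 2 snf2 rich arrays that measured both. Copies of a core histone gene are similar in their coding sequence, and a probe can take up RNA of the other copy, which would draw their ratios together. No label says how far each probe separates the copies.

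**Figure D4:**
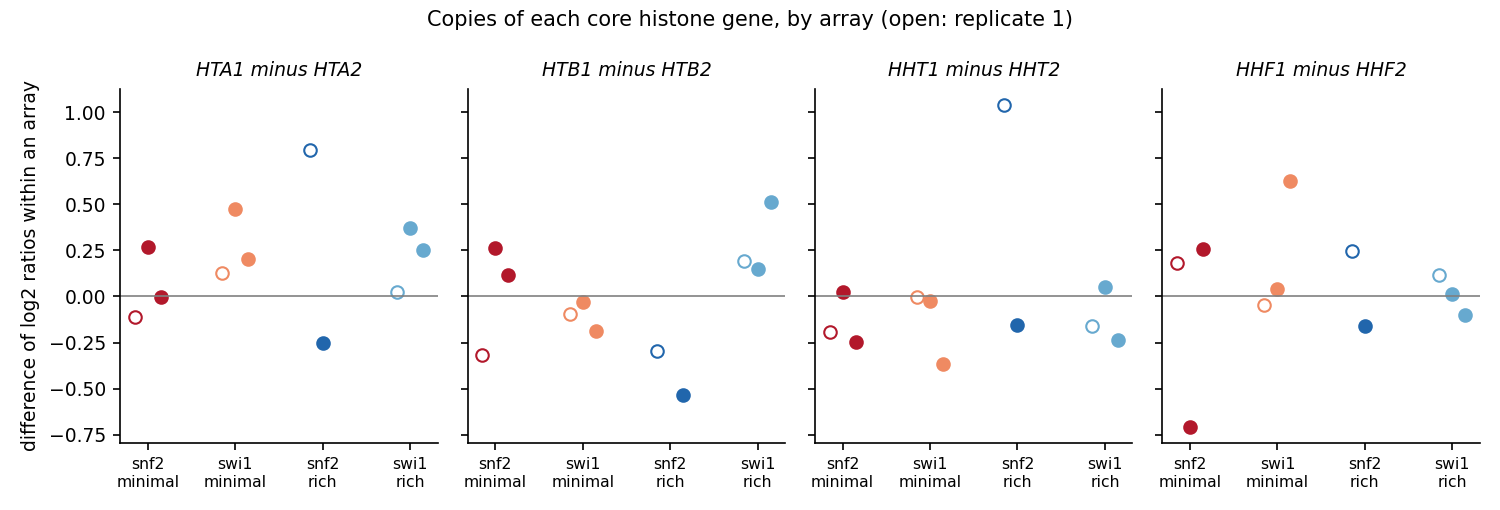
Difference of the log2 ratios of the copies of each core histone gene within an array, by group, with open circles for replicate 1. HTA1 lies above HTA2 on 8 of 11 arrays, and the other pairs scatter on both sides of 0.

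The variant gene HTZ1 split by platform. H2A.Z replaces H2A in nucleosomes beside promoters and is made outside S phase as well. On replicates 2 and 3 HTZ1 stood at 0.0485 and 0.11 for snf2 and 0.40 and 0.17 for swi1 in minimal medium, at 0.24 and 0.40 for swi1 in rich medium, and on replicate 2 at 0.47 in snf2 rich. On replicate 1 it stood at -0.18, -0.63, -1.11 and -0.16 in snf2 minimal, swi1 minimal, snf2 rich and swi1 rich. All 7 values of the shared platform were above 0 and all 4 values of replicate 1 below. limma called HTZ1 higher in swi1 rich by 0.32 ± 0.10 (adjusted p = 0.0472), where 19.1% of all genes were called higher. This call was lost without replicate 2 (adjusted p = 0.103) and without replicate 3 (adjusted p = 0.313), and with replicate 1 added the value was -0.00533 (adjusted p = 0.995). In swi1 minimal HTZ1 was at 0.29 ± 0.10 (adjusted p = 0.0832) and in snf2 minimal at 0.0805 ± 0.10 (adjusted p = 0.597).

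For the linker histone gene HHO1 the probes disagreed. Linker histone binds the DNA between nucleosomes. The first HHO1 probe of the shared platform was below 0 on 8 of 8 arrays, from -0.44 to -0.0495 with a median of -0.33. The second was below 0 on 1 of 8 arrays, from -0.0195 to 0.98 with a median of 0.23. The probes of replicate 1 stood at -0.33 and -0.53 in snf2 and swi1 minimal and at -1.20 and -0.49 in snf2 and swi1 rich, on the side of the first probe.

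With the probes averaged, no HHO1 value passed. They were 0.12 ± 0.12 for snf2 and -0.010 ± 0.12 for swi1 in minimal medium, and 0.042 ± 0.13 for snf2 and -0.070 ± 0.12 for swi1 in rich medium (limma adjusted p of 0.50 or more). With the first probe alone the values were -0.24, -0.39, -0.23 and -0.34 in the same order, of which limma called those of swi1 in minimal (adjusted p = 0.0355) and in rich medium (adjusted p = 0.0413). What the second probe measures was not tested. The averaged HHO1 value therefore stands for probes that went opposite ways.

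CSE4, which encodes the H3 variant of centromeres, stood at -0.0415 in snf2 minimal, 0.0380 in swi1 minimal and 0.17 in snf2 rich, with no call, and was not testable in swi1 rich.

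Genes that act on histone genes or histones were counted against the share of all genes called lower, which was 16.4% for snf2 and 14.8% for swi1 in minimal medium, and 22.2% for snf2 and 21.7% for swi1 in rich medium. Of 12 regulators of histone transcription (the Hir proteins, their partners and the SBF and MBF factors), 1 of 12 for snf2 and 0 of 12 for swi1 were called lower in minimal medium, and 0 of 6 for snf2 and 0 of 9 for swi1 in rich medium, where 1 was called higher on swi1 arrays. The one lower was HPC2 (YBR215W), a Hir complex subunit, which fell by 0.64 ± 0.19 in snf2 minimal (limma adjusted p = 0.0394). The one higher was ASF1 (YJL115W), a histone chaperone that works with Hir, which rose by 0.52 ± 0.15 in swi1 rich (adjusted p = 0.0269). The list medians were -0.11, 0.0106, 0.16 and 0.0868 in snf2 minimal, swi1 minimal, snf2 rich and swi1 rich.

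Of the histone chaperone genes, limma called lower 1 of 13, 1 of 13, 1 of 6 and 2 of 12 and higher none, for snf2 and swi1 in minimal and then in rich medium, all under those shares of all genes. MSI1 (YBR195C), a subunit of the chromatin assembly factor CAF-1, was the gene called each time, falling by 0.52 ± 0.12, 0.63 ± 0.12, 0.85 ± 0.12 and 0.72 ± 0.12. PSH1 (YOL054W), a ubiquitin ligase for the centromeric H3 variant, fell by 0.63 ± 0.13 in swi1 rich. Of the genes for H2A.Z exchange only SWR1 (YDR334W), the ATPase that inserts H2A.Z, was called among 7, 8, 6 and 9 tested, at -0.48 ± 0.10 in swi1 minimal (adjusted p = 0.0363). SWR1 could be tested in swi1 minimal alone, and it was named after its value was seen.

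Of the histone acetylation and deacetylation genes, 2 of 18, 1 of 15, 1 of 14 and 4 of 18 were called lower and 0, 1, 2 and 1 higher. The count for swi1 in rich medium was near the 21.7% of all genes called lower, and the others were below their shares. ELP3 (YPL086C), the catalytic subunit of Elongator, fell in all 4 groups, by 0.36 ± 0.09, 0.51 ± 0.09, 0.63 ± 0.10 and 0.37 ± 0.09. HOS1 (YPR068C), a histone deacetylase, rose in rich medium by 0.47 ± 0.12 on snf2 and 0.54 ± 0.12 on swi1 arrays. SIR2 (YDL042C), the silencing deacetylase, fell by 0.58 ± 0.19 in swi1 rich.

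Of the genes for histone methylation and ubiquitination, 2 of 9 for snf2 and 1 of 10 for swi1 were called lower in minimal medium, and 4 of 6 for snf2 and 6 of 8 for swi1 in rich medium. The shares of all genes called lower were 16.4%, 14.8%, 22.2% and 21.7% in the same order. The genes tested differed between media, and the difference between media was not tested for the list. The list medians were -0.17, -0.11, -0.39 and -0.58. BRE1 (YDL074C), the ubiquitin ligase for H2B, stood at -0.55 ± 0.17 for snf2 and -0.24 ± 0.17 for swi1 (not called) in minimal medium, and at -0.76 ± 0.17 for snf2 and -0.86 ± 0.17 for swi1 in rich medium. UBP8 (YMR223W) and UBP10 (YNL186W), proteases that remove ubiquitin from H2B, fell in rich medium by 0.56 ± 0.12 and 0.47 ± 0.10 on snf2 arrays and by 0.40 ± 0.11 and 0.57 ± 0.10 on swi1 arrays. LGE1 (YPL055C), a partner of Bre1, was called higher in minimal medium at 0.70 ± 0.18 on both snf2 and swi1 arrays, and was named after its values were seen.

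Because histone genes are transcribed in S phase, genes that mark cell-cycle stages were set beside them. Of 20 genes of the G1/S transition and DNA replication, 4 of 19, 2 of 20, 4 of 16 and 5 of 18 were called lower in snf2 minimal, swi1 minimal, snf2 rich and swi1 rich, and 2, 2, 1 and 3 higher, with medians of 0.0230, 0.0720, -0.11 and -0.16. The shares of all genes called lower were 16.4%, 14.8%, 22.2% and 21.7%. RNR1 (YER070W), the large subunit of ribonucleotide reductase, fell in all 4 groups by 0.57 ± 0.12, 0.69 ± 0.12, 0.60 ± 0.12 and 0.56 ± 0.12. PRI2 (YKL045W) of the same list was called higher in all 4 groups, at 0.36 ± 0.10, 0.38 ± 0.10, 0.29 ± 0.10 and 0.37 ± 0.10. CDC21 in snf2 minimal, RFA3 in swi1 minimal, and POL1 and CDC45 in swi1 rich were also called higher. The genes called higher were named after their values were seen. The G1 cyclin gene CLN2 (YPL256C) stood at -0.62 ± 0.14, -0.41 ± 0.14 (not called), -0.63 ± 0.14 and -0.56 ± 0.14, and CLN1 (YMR199W) at -0.52 ± 0.10, -0.14 ± 0.10 (not called), -0.61 ± 0.10 and -0.70 ± 0.10.

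Of the genes of G2/M and the M/G1 boundary, 7 of 9, 4 of 8, 2 of 3 and 3 of 6 were called lower in the same order, beside those shares of all genes. None was called higher, and the medians were -0.48, -0.67, -0.35 and -0.74. Those called lower included the mitotic cyclin gene CLB1 (YGR108W), at -2.63 ± 0.10 in snf2 minimal, -2.45 ± 0.10 in swi1 minimal and -2.26 ± 0.10 in swi1 rich, and EGT2 (YNL327W) of cell separation, at -1.56 ± 0.13, -1.85 ± 0.13 and -1.28 ± 0.13 in the same groups. The list was uneven, and in the same groups ASH1 stood at -1.22, -1.06 and -1.40. CLB2 stood at -0.36, 0.013 and -0.16 there, and SIC1 at -0.24, -0.08 and 0.084. Of the CLB2 and SIC1 values, only that of CLB2 in snf2 minimal was called. The genes named from this list were chosen after their values were seen. The part that a shift in cell-cycle stages has in the histone values was not tested. In these RNA samples fewer cells in S phase and less histone RNA per cell cannot be told apart.

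**Figure D5:**
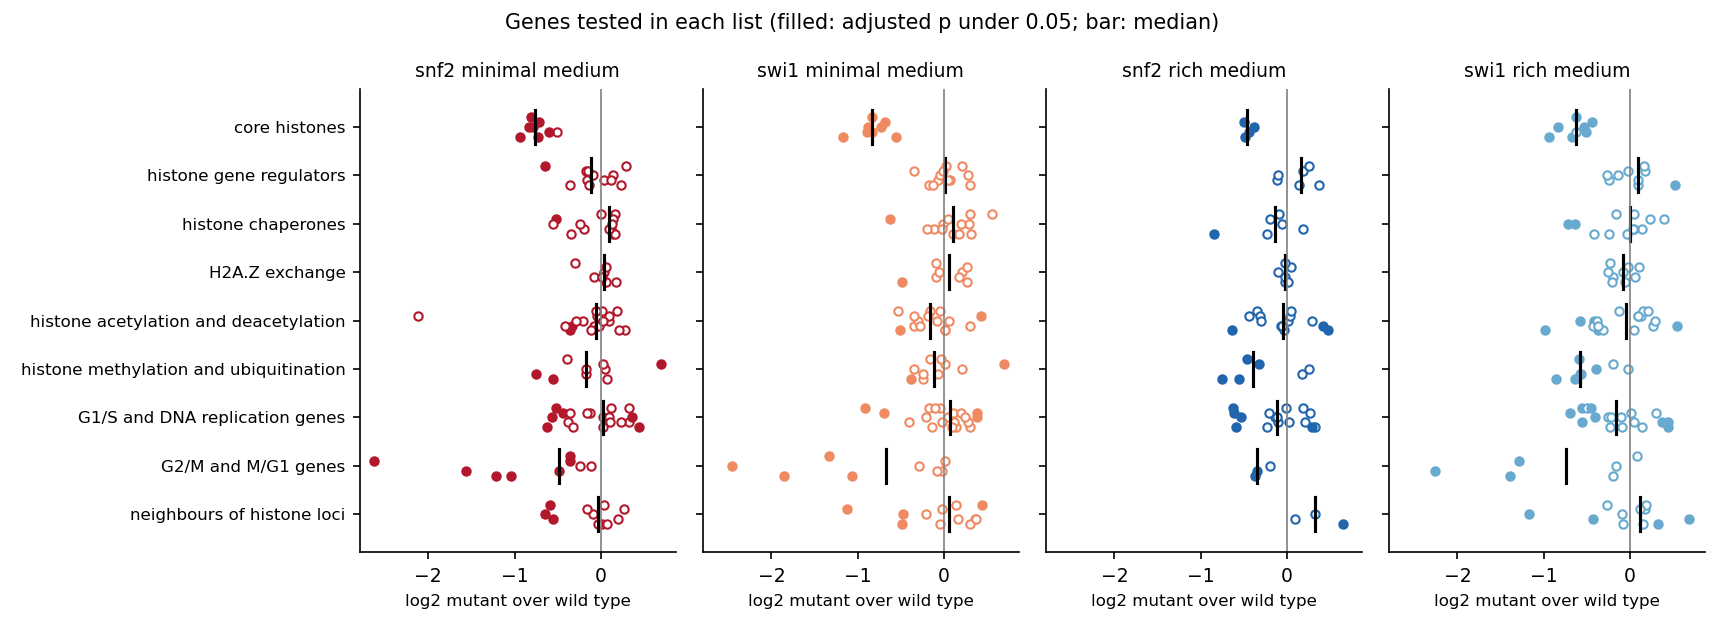
Fitted log2 ratio of mutant over wild type (direction likely) of each tested gene, by list and group, with filled circles at adjusted p under 0.05 and a bar at the list median. The core histones have medians of -0.76, -0.83, -0.47 and -0.62 in the 4 panels, and the G1/S and DNA replication genes 0.0230, 0.0720, -0.11 and -0.16.

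The protein-coding genes that flank the histone loci in the RefSeq annotation were also read. Called lower were 3 of 11 (snf2 minimal), 3 of 12 (swi1 minimal), 0 of 3 (snf2 rich) and 2 of 11 (swi1 rich). In the same order, 16.4%, 14.8%, 22.2% and 21.7% of all genes were called lower. Called higher were 0 of 11, 2 of 12, 1 of 3 and 2 of 11, beside 12.8%, 13.7%, 19.5% and 19.1% of all genes. Beside HTA1-HTB1, CRF1 (YDR223W), a transcriptional corepressor of ribosomal protein genes, stood at 0.20 ± 0.11 in snf2 minimal (not called) and rose by 0.36 ± 0.11, 0.65 ± 0.11 and 0.69 ± 0.11 in swi1 minimal, snf2 rich and swi1 rich. ADK1 (YDR226W), adenylate kinase, on its other side, was called higher in swi1 rich at 0.32 ± 0.10. In minimal medium ADK1 stood at 0.016 for snf2 and -0.047 for swi1 (neither called), and it was not tested in snf2 rich. Where called, CRF1 and ADK1 went the other way from HTA1 and HTB1, which for ADK1 rests on swi1 rich alone.

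No flank of HTA2-HTB2 (UTP20 and ECM15), HHT1-HHF1 (FLR1 and IPP1) or HHT2-HHF2 (SIW14 and KTR5) was called in any group in which it was tested, with values from -0.21 (ECM15, swi1 minimal) to 0.37 (KTR5, swi1 minimal). Beside HTZ1, PLB3 (YOL011W), a phospholipase B, fell by 0.65 ± 0.18 for snf2 and 1.12 ± 0.18 for swi1 in minimal medium, and was at -1.18 ± 0.18 for swi1 in rich medium, and HRD1 (YOL013C), a ubiquitin ligase of the endoplasmic reticulum, was called higher at 0.44 ± 0.10 in swi1 minimal. Beside HHO1, NAN1 (YPL126W) of ribosome biogenesis fell by 0.56 ± 0.12, 0.47 ± 0.12 and 0.44 ± 0.12 in snf2 minimal, swi1 minimal and swi1 rich. TBF1 (YPL128C), a telomere-binding factor, fell by 0.58 ± 0.09 and 0.48 ± 0.09 in minimal medium.

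The genes whose values over the 8 arrays of replicates 2 and 3 were most like the core histone profile were found by the root mean square difference in log2. The profile was the mean of HTA1, HTB2, HHT1 and HHF1, the core genes measured on all 8 arrays, and averaged -0.66. Of 3152 genes, RPS31 (YLR167W), which encodes a ubiquitin fused to a ribosomal protein, came closest, with a difference of 0.13 (r = 0.80). HMRA2 (YCR096C), a silent mating-type gene that shares sequence with other mating-type genes, followed at 0.15 (r = 0.61), and AUR1 (YKL004W), the inositol phosphorylceramide synthase, at 0.15 (r = 0.78). YBR013C was next, at 0.16 (r = 0.62). For scale, HTA1 differed by 0.10, HHT1 by 0.15, HTB2 by 0.17 and HHF1 by 0.19 from the mean of the other 3 core genes, HHO1 differed by 0.73 from all 4, and the median gene by 0.77. These correlations are over 8 arrays that share the shift between media and are given as descriptions.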

How the data were processed

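RNA of deletion mutants and of the wild type FY2 was compared on two-channel spotted arrays. The authors deposited log2 ratios, 1 per probe and array, in 3 tables, from images read with ScanAlyze (version 2.24 or of unknown version, per the labels). Normalisation, numerator and log base are not given in the sources used here. Base 2 was taken from the values of the table of 8 arrays, where values gather at the log2 of ratios of small whole numbers, and was assumed for replicate 1. Signs were turned to mutant over wild type. Genes were assigned to probes with the platform annotation, updated through RefSeq R64, spots of a gene were averaged, and each array was centred on its median over genes.

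limma 3.58.1 (R 4.3.3) was fitted to replicates 2 and 3 of all 4 groups (8 arrays) with 1 mean per group, for genes with a value on both arrays of the groups compared. Groups missing a gene dropped out of that gene's fit. Tests were two-sided, with Benjamini-Hochberg adjustment over all genes tested, called under 0.05, and the script was tested on simulated data. The main limma tests used 1 platform, and levels of replicate 1 were only set beside them. Arrays were treated as unpaired. Copies were compared by exact sign-flip tests over all arrays. Named genes were the members, up to 3 called genes with the largest mean change per list among those measured on all 8 arrays, the neighbours, and the 5 genes nearest to the core profile. The members and lists were chosen with earlier results of these data known. Alternatives were no centring, scale normalisation, a replicate block, all 12 arrays, complete genes, the compared groups alone, a single spot and each array left out. Some genes that these rules name are not reported here. The number of arrays limits the precision, and signal over background is not given.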

Additional observations from a re-analysis of the deposited data

How the results depend on the processing

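Of the 26 calls of core genes, none changed direction in 224 alternative values (185 stayed called and 39 did not), with log2 values from -1.30 to -0.11. Many of these alternatives could not change direction. The replicate block, the compared groups alone and complete genes leave the log2 value as in the main fit, and scaling an array keeps the signs of its values. When replicate 1 was added, with a random block for the platform, 4 histone genes were called in snf2 minimal, 1 in snf2 rich and 3 in swi1 rich, against 7, 4 and 8 in the fit of 8 arrays. Among the 5 histone genes measured on all 8 arrays, 4 were called in each of snf2 minimal, swi1 minimal and swi1 rich, since fewer genes were tested. In snf2 rich 1 gene was called when only the compared groups were fitted and 1 without centring. Leaving out a snf2 rich array also changed which histone genes could be tested, 6 without replicate 2 and 9 without replicate 3, against 5. HTA1, HTB2, HHT1 and HHF1, the genes called there in the main fit, all lost their call without replicate 2. The lower of the snf2 rich counts below, without replicate 2, therefore holds none of these genes. Leaving out 1 array of the group gave 6 to 7 calls in snf2 minimal, 4 to 6 in swi1 minimal, 1 to 2 in snf2 rich and 2 to 5 in swi1 rich.

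With the replicate number as a block, 7 and 8 histone genes were called for snf2 and swi1 in minimal medium and 3 and 8 in rich medium. HTA1 was lost in snf2 rich (adjusted p = 0.0516) and HTZ1 in swi1 rich (0.0757), and HHF2 was gained in swi1 rich (0.0371). Deviations of same-numbered arrays correlated between -0.0313 and 0.0193, so the numbers were not taken to pair them.

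HHO1 turned negative with all 12 arrays (-0.23 in snf2 minimal, -0.52 in snf2 rich), with 1 probe (-0.24 and -0.23) and without replicate 2 (-0.0345 and -0.0250, against 0.28 and 0.11 without replicate 3). In swi1 it turned positive without centring (0.0430 in minimal, 0.0195 in rich) and without minimal replicate 2 (0.18, against -0.20 without replicate 3). HTZ1 turned negative with all 12 arrays, at -0.23 in snf2 minimal, -0.24 in swi1 minimal and -0.00533 in swi1 rich. The difference HTA1 minus HTA2 ranged from 0.14 to 0.24 with 1 array left out. HHF1 minus HHF2 ranged from -0.0163 to 0.12 and was -0.00371 on the 8 arrays. HHT1 minus HHT2 ranged from -0.13 to 0.0091 and was 0.11 in rich medium. HTB1 minus HTB2 ranged from -0.0739 to 0.0311, with 0.0091 and 0.0072 among the values above 0, and was 0.0050 in rich medium and 0.0413 on the 8 arrays. Without centring, calls over all genes shifted towards higher: 769 lower and 920 higher in snf2 minimal, against 872 and 678 with it; 684 and 908 in swi1 minimal, against 790 and 736; 630 and 998 in snf2 rich, against 822 and 721; 866 and 1226 in swi1 rich, against 1093 and 958. Of the core values, 90 of 92 lay below 0 without centring, and 86 of 87 without snf2 rich replicate 3. These counts and the one without snf2 rich replicate 1 were chosen after seeing the data. Where a result changed with a setting, the cause was not tested.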
